A study of Mus musculus with 23 samples.

Results

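The effect of niacin (nicotinic acid, vitamin B3) on mouse CD4 T cells kept in interleukin-2 (IL-2) without any stimulus to the T cell receptor was measured in RNA-seq libraries labelled wild type. The comparison takes 6 of the 23 libraries of the series, chosen by their labels: 3 of cells given 5 mM niacin and 3 of cells given none. In both groups, CD45+CD3+CD4+CD8- cells were sorted from the spleen of C57BL/6 mice and cultured for 72 h with IL-2 at 30 IU/ml. The other libraries came from cells stimulated with antibodies to CD3 and CD28 and from cells labelled Gpr109a-/-, each without and with niacin. The total RNA of the sorted cells was made into cDNA with a low-input SMART-seq V4 kit and read as pairs of 50 bases.

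Interferons act through JAK kinases and STAT transcription factors. Type I interferon assembles a complex with STAT2 and IRF9 on the interferon-stimulated response element (ISRE), interferon gamma acts through the gamma-activated site (GAS), and IRF1 passes the signal on to class I antigen presentation. T cells show a tonic level of these genes without infection. Niacin has a receptor, Hcar2 (Gpr109a), and is also a precursor of NAD, which it enters through the enzyme NAPRT.

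The 6 libraries held 22129531, 22898132 and 25948027 counts with niacin, and 22806292, 20636274 and 21516693 counts without. Library 1 of each group stood apart from its partners: chi-square per degree of freedom between replicates was 39.83 and 68.82 for the niacin pairs with library 1 against 13.2 for the third pair, and 51.54 and 51.18 against 15.21 without niacin. The mitochondrial share of counts was 0.881% to 0.924% with niacin, and 0.346% in library 1 without niacin beside 0.937% and 0.802% in the others. Outside the comparison, library 3 of the unstimulated knockout-labelled cells, the shallowest of the series at 13205565 counts, had 4.57% of its counts on genes resembling rRNA and chi-square values of 258.9 and 248 against its partners. Its name in the deposited counts lacks the tag jax, which all other libraries carry and which the labels do not explain. This library enters the fit through the shared estimate of spread, the filter on low counts and the normalisation, and values with and without it are given. Hcar2 had 0 counts in each niacin library and 1, 0 and 0 counts in the control libraries, but 32 and 28 counts in unstimulated knockout-labelled cells with niacin and 17, 26 and 7 in those without. Its counts thus go against the genotype labels, and the cells are named by label throughout. The labels do not say whether replicates came from separate animals, so p-values measure only the spread between these libraries.

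In unstimulated wild-type-labelled cells, interferon-response and class I antigen-presentation genes stood lower with niacin than without. Ifit3, which encodes an antiviral protein, was at 21.0 ± 11.4 CPM (this unit is each count relative to its library's total, scaled by edgeR's TMM factors) with niacin and 86.5 ± 13.7 CPM without (SD, n = 3 each). In the 83 genes of 3 lists (type I interferon, interferon gamma, and class I presentation with the immunoproteasome), all of them tested, 55 had all 3 niacin libraries below all 3 control libraries and 0 had them above. The median log2 fold change over the 83 was -0.71, against 0.003 over all 16882 genes tested. It was negative in 82 of the 83, and in 8295 of all genes tested. Groups did not overlap in the lower direction in 5.22% of all genes and in the higher direction in 4.43%. Among the 9727 genes at 5 CPM or more in the higher group, the lower share was 7.04%. The lists were chosen with earlier results of these data known, so setting them beside these shares is a description and no test.

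No gene passed the adjusted threshold of 0.05 in edgeR's quasi-likelihood test over the 23 libraries: 0.0% were called lower and 0.0% higher. At an unadjusted p under 0.05 it had 457 genes (2.71%), 289 of them lower (1.71%) and 168 higher (0.995%), with 57 of the lower ones and 0 of the higher ones in the 83. Limma voom with sample quality weights called 187 genes lower (1.11%) and 99 higher (0.586%), of which 53 and 0 were in the 83. DESeq2 called 13 lower (0.077%) and 1 higher (0.00593%). With library 3 of the unstimulated knockout-labelled cells left out of the edgeR fit, 16 genes were called lower (0.0952%) and 0 higher (0.0%), 10 of them in the 83. All 16 were among the calls of voom and 11 among those of DESeq2. With a further library left out, that count of genes lower was 63, 3 or 0 without niacin library 1, 2 or 3 (3 higher without niacin library 1), and 2, 0 or 0 without control library 1, 2 or 3.

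**Figure D1:**
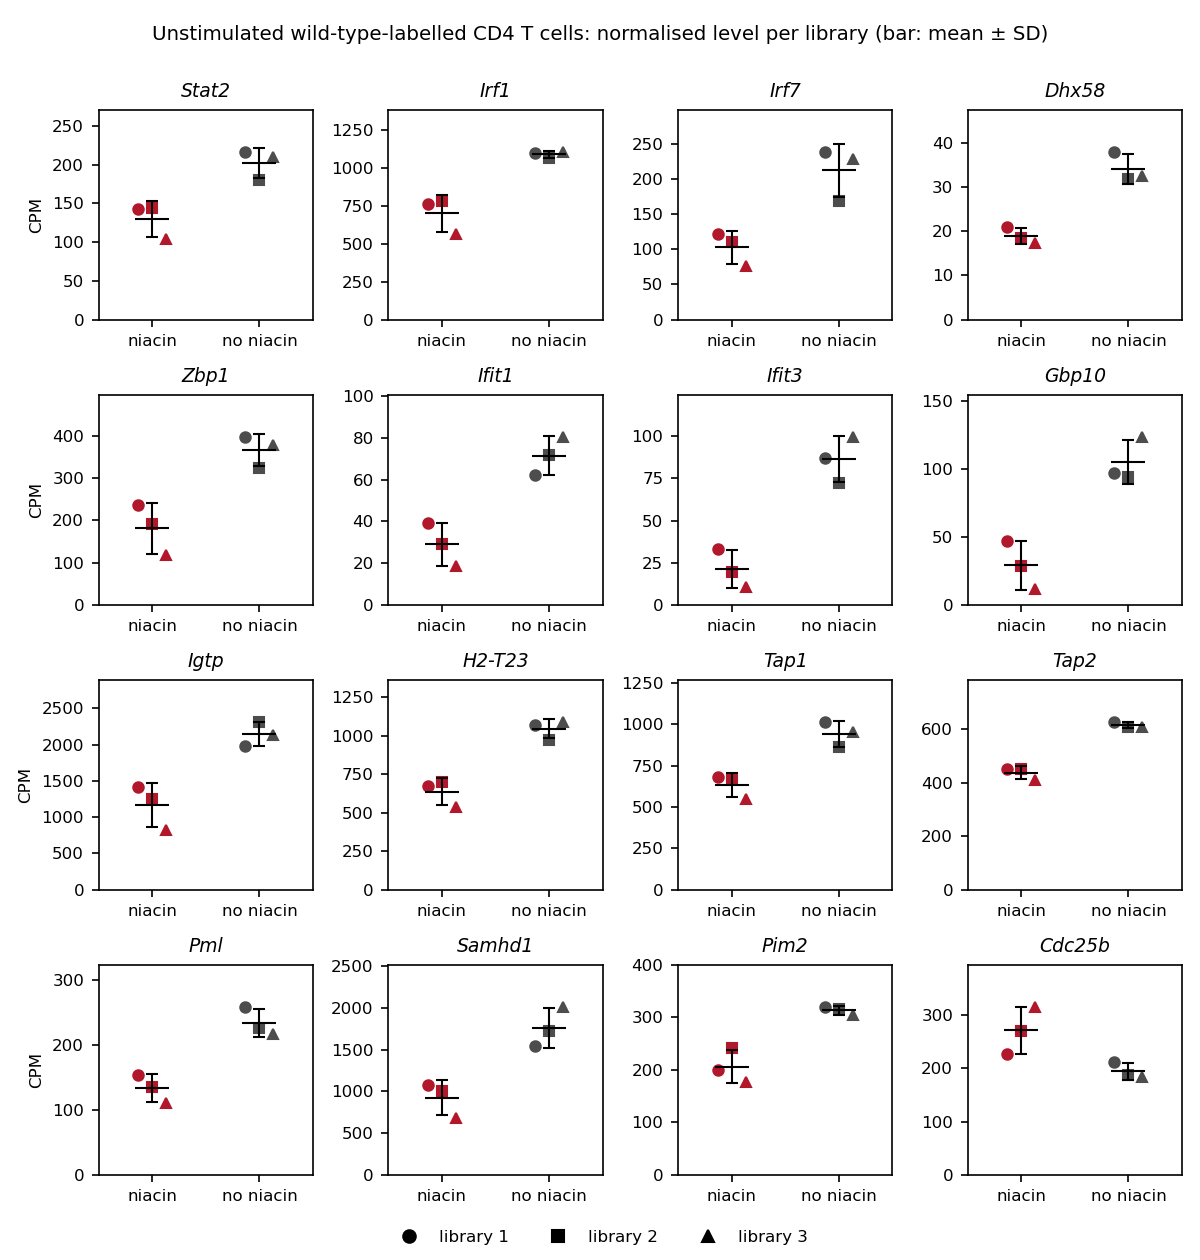
Normalised level (CPM, linear axis from 0) of 16 genes in each of the 3 niacin libraries, left, and the 3 control libraries, right, of unstimulated wild-type-labelled cells. Symbols mark library 1, 2 and 3 and bars give the mean ± SD. In 15 of the panels the niacin libraries lie below the control libraries, and in that of Cdc25b they lie above. The genes were taken by a rule that requires groups without overlap, or after their values were seen, so this separation is no test. List members with overlapping groups, such as Ifit2, Socs1, B2m and Mx1, are not drawn.

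The transcription factors of the pathway had some of the smallest p. Irf1, an interferon-induced factor that drives class I genes, lies on chromosome 11 at 53770014 to 53778374 (coordinates of the deposited mm10 table). It was at 760, 779 and 560 CPM with niacin and at 1093, 1060 and 1104 CPM without. All 3 niacin libraries lay below all 3 control libraries, as the rule for naming genes required. Niacin library 3 was the lowest (log2 fold change -0.63 ± 0.12 (SE, as for each fold change here), edgeR adjusted p = 0.131, voom 0.000667).

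Irf7, which amplifies the type I response, was at 122, 110 and 76.7 CPM with niacin and at 238, 168 and 228 CPM without (log2 fold change -1.04 ± 0.25). Stat2, a subunit of the type I complex, was at 143, 144 and 103 CPM with niacin and at 217, 180 and 210 CPM without (log2 fold change -0.64 ± 0.14, DESeq2 adjusted p = 0.0129). Both were voom calls, and neither overlapped between groups. Irf9, the DNA-binding subunit of that complex, showed the smallest shift of these factors, at 221, 246 and 216 CPM with niacin and 279, 307 and 290 CPM without (log2 fold change -0.36 ± 0.15, voom adjusted p = 0.0781). Irf8, another interferon gamma target, ran from 25.2 to 80.9 CPM with niacin and from 69.2 to 99.5 CPM without, so the groups overlapped, although voom called it (adjusted p = 0.0021).

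The promoter of Irf1 carries a GAS in the window read here, and is shown because Irf1 was among the genes with the smallest p. It is the RefSeq sequence (GRCm38.p6) of chr11:53769764-53770063, plus strand, 250 bases before to 50 after the start, written 5′ to 3′ with the 9 bases matching TTCNNNGAA in capitals, which begin 90 bases before the start; a second Irf1 entry of that table is not shown.
Irf1: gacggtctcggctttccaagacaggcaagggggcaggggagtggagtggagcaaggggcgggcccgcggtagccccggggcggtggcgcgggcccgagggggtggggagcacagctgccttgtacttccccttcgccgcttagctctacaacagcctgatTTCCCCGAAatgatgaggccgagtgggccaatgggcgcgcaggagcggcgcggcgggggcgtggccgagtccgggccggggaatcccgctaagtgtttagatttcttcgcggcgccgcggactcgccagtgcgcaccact

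The type I interferon list holds effectors against viruses. Of the 40 genes of this list, 40 had a negative log2 fold change, with a median of -0.82, against 8295 of all 16882 genes. At an unadjusted p under 0.05 in edgeR, 27 were lower, against 1.71% of all genes. Groups did not overlap in 26, against 5.22% of all genes in that direction. Voom called 21 lower, against 1.11% of all genes. Dhx58 (LGP2), a helicase that regulates the RIG-I pathway, was at 18.9 ± 1.83 CPM with niacin and 34.0 ± 3.43 CPM without (SD, n = 3 each), with no overlap (log2 fold change -0.85 ± 0.16, edgeR adjusted p = 0.131). Zbp1, a sensor of Z-form nucleic acid, was at 237, 191 and 117 CPM with niacin and at 399, 326 and 379 CPM without (log2 fold change -1.02 ± 0.23, edgeR adjusted p = 0.337). Both were called by voom, by DESeq2 and by edgeR without the knockout-labelled library 3.

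Among the tetratricopeptide antiviral genes, Ifit3 was at 33.1, 19.3 and 10.5 CPM with niacin and at 87.2, 72.4 and 99.8 CPM without (log2 fold change -2.05 ± 0.45, edgeR adjusted p = 0.337, voom 0.000133). Ifit1 was at 39.1, 29.2 and 18.4 CPM with niacin and at 62.2, 71.7 and 80.6 CPM without. Ifit3b, a near-identical copy whose reads the counting could have divided with Ifit3, averaged 5.69 ± 2.80 CPM with niacin and 22.7 ± 5.11 CPM without (SD, n = 3 each). Ifit2 differed from these, at 108, 110 and 105 CPM with niacin and 96.2, 138 and 143 CPM without, with overlapping groups (log2 fold change -0.22 ± 0.33).

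Other members of the list spread widely. Isg15, a ubiquitin-like protein, was at 9.65, 6.61 and 4.07 CPM with niacin and at 23.8, 13.6 and 16.2 CPM without. Usp18, which removes it and dampens the receptor, was at 44.5, 43.5 and 34.3 CPM with niacin and at 88.9, 69.3 and 72.9 CPM without. In both genes the niacin libraries lay below the control libraries, and both were voom calls. Mx1, an antiviral GTPase, was at 1.57, 0.999 and 0.752 CPM with niacin and 1.12, 0.803 and 1.52 CPM without (log2 fold change -0.06 ± 0.52). Herc6, an enzyme of ISG15 transfer in mouse, was at 29.3, 24.8 and 23.2 CPM with niacin and 17.8, 30.8 and 36.5 CPM without. In both of these genes the groups overlapped.

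The Ifit3 promoter is shown for the size of its difference; it holds 2 matches to GAAANNGAAA, the core of the ISRE, on the minus strand of the window, in capitals and beginning 156 and 122 bases before the start. It is chr19:34583279-34583578 of GRCm38.p6, plus strand.
Ifit3: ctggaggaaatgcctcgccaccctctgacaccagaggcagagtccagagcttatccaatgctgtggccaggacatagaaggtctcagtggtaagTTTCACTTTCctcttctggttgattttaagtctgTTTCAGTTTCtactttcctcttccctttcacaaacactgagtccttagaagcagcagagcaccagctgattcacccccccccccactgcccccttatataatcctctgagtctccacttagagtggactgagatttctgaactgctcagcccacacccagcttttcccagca

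Interferon gamma targets lay as low. Of 25 genes, 24 had a negative log2 fold change (median -0.78), 18 had an unadjusted p under 0.05, 17 did not overlap between groups, and 19 were voom calls. For the last 3 counts, all lower with niacin, the shares of all genes were 1.71%, 5.22% and 1.11%. Of all 16882 genes, 8295 had a negative log2 fold change. The guanylate-binding proteins are GTPases that attack the vacuoles of intracellular pathogens. Gbp10 was at 46.7, 28.8 and 11.2 CPM with niacin and at 96.9, 94.3 and 124 CPM without (log2 fold change -1.86 ± 0.38, edgeR adjusted p = 0.147, voom 4.66e-05). Gbp2 was at 614, 469 and 287 CPM with niacin and at 898, 1109 and 1030 CPM without. The Gbp genes are close copies of one another, and reads could have been divided among them.

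The immunity-related GTPases Igtp (Irgm3) and Ifi47 had the highest CPM of the list. Igtp was at 1417, 1256 and 828 CPM with niacin and at 1985, 2316 and 2133 CPM without (log2 fold change -0.88 ± 0.25, edgeR adjusted p = 0.757, 0.0326 without the knockout-labelled library 3). Ifi47 was at 1009, 901 and 637 CPM with niacin and at 1230, 1470 and 1393 CPM without (log2 fold change -0.68 ± 0.29, voom adjusted p = 0.00891). In both genes the niacin libraries kept the same order, with library 1 nearest the controls. Cd274 (PD-L1), a checkpoint ligand that interferon gamma induces, was at 110, 96.9 and 58.9 CPM with niacin and at 156, 181 and 205 CPM without. Socs1, the feedback inhibitor of JAK signalling, was at 593, 417 and 329 CPM with niacin and at 750, 609 and 559 CPM without, and its groups overlapped (log2 fold change -0.52 ± 0.44).

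Igtp is shown because both motifs fall within its window, at chr11:58199306-58199605 of GRCm38.p6, plus strand: a GAS beginning 45 bases before the start and an ISRE core beginning 34 bases before it, both in capitals.
Igtp: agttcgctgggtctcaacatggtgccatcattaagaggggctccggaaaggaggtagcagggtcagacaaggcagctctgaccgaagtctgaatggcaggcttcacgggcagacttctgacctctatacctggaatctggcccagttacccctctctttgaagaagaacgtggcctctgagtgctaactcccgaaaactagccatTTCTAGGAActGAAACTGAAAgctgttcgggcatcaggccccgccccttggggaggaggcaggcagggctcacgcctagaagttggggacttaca

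Class I presentation and the immunoproteasome differed by less. All 18 tested genes had a negative log2 fold change (median -0.47), against 8295 of all 16882 genes. A negative sign throughout was not particular to this list: all 36 nuclear genes of oxidative phosphorylation had it too (median -0.16). Of these, 12 had an unadjusted p under 0.05, 12 did not overlap between groups, and 13 were voom calls. The shares of all genes, lower with niacin, were 1.71%, 5.22% and 1.11%. Tap1 and Tap2 encode the peptide transporter that loads class I. Tap1 was at 682, 667 and 551 CPM with niacin and at 1016, 861 and 954 CPM without (log2 fold change -0.58 ± 0.15). Tap2 was at 449, 453 and 409 CPM with niacin and at 628, 607 and 610 CPM without (log2 fold change -0.49 ± 0.16). Their edgeR adjusted p was 0.567 for Tap1 and 1.0 for Tap2, and 0.0389 and 0.0326 without the knockout-labelled library 3.

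H2-T23, which encodes the nonclassical class I molecule Qa-1, was at 674, 697 and 538 CPM with niacin and at 1071, 974 and 1091 CPM without (log2 fold change -0.72 ± 0.14, edgeR adjusted p = 0.147). The classical class I heavy chains H2-D1 and H2-K1 had the highest CPM of the list. H2-D1 was at 5506, 5260 and 5006 CPM with niacin and at 6950, 6915 and 6258 CPM without (log2 fold change -0.35 ± 0.15, voom adjusted p = 0.00579). H2-K1 was at 4565, 4377 and 3945 CPM with niacin and at 5771, 4928 and 5261 CPM without (log2 fold change -0.31 ± 0.16, voom adjusted p = 0.0661). Neither overlapped between groups, and since class I heavy chains share long stretches of sequence, the division of reads among them is uncertain.

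Psmb9 and Psmb8 are catalytic subunits of the immunoproteasome, which trims peptides for class I. Psmb9 was at 410, 374 and 280 CPM with niacin and at 563, 471 and 524 CPM without, and did not overlap (log2 fold change -0.55 ± 0.14). Psmb8 was at 795, 576 and 497 CPM with niacin and at 961, 864 and 770 CPM without, and overlapped in niacin library 1 (log2 fold change -0.47 ± 0.15). B2m, the light chain of class I, was at 3601, 2963 and 2786 CPM with niacin and at 3022, 4486 and 4282 CPM without, so control library 1 fell among the niacin libraries (log2 fold change -0.33 ± 0.18). Nlrc5, the class I transactivator, which stands in the interferon gamma list, was at 327, 410 and 374 CPM with niacin and 474, 394 and 476 CPM without (log2 fold change -0.27 ± 0.16). Of the 25 subunits of the constitutive proteasome, 22 had a negative log2 fold change, with a median of -0.16. At an unadjusted p under 0.05, 1 was lower, and 0 were voom calls (1.71% and 1.11% of all genes). Niacin library 3 was the lowest of the 6 libraries in 18 of these 25, in 17 of the 18 class I genes and in 3314 of all 16882 genes.

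The H2-T23 promoter is shown because the gene ranked among the 6 smallest p; it holds 1 ISRE core, on the minus strand of the window, in capitals and beginning 124 bases before the start. It is chr17:36032652-36032951 of GRCm38.p6, and the gene lies on the minus strand.
H2-T23: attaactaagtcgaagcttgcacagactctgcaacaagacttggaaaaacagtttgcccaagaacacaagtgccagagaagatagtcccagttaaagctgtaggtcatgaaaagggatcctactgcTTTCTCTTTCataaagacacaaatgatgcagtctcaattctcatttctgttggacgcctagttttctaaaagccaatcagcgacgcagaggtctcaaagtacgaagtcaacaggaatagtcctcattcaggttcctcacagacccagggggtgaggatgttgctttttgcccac

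The RefSeq promoter table used here matched 62 of the 83 genes; Dhx58, Gbp10, Zbp1 and Tap2 were not among them. Searched on both strands, GAAANNGAAA was in 31 of the 62 (50%), against 3.99% of all 27025 gene symbols with a promoter of this length. By list it was in 15 of 29 type I genes (51.7%), 11 of 17 interferon gamma genes (64.7%) and 5 of 16 class I genes (31.3%). TTCNNNGAA, which reads the same on both strands apart from its middle bases, was in 16 of the 62 (25.8%), against 9.55% of all symbols, and in 9 of the 17 interferon gamma genes (52.9%). Tap1 held neither set of letters. These matches describe the sequences of genes put on the lists as interferon targets.

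**Figure D2:**
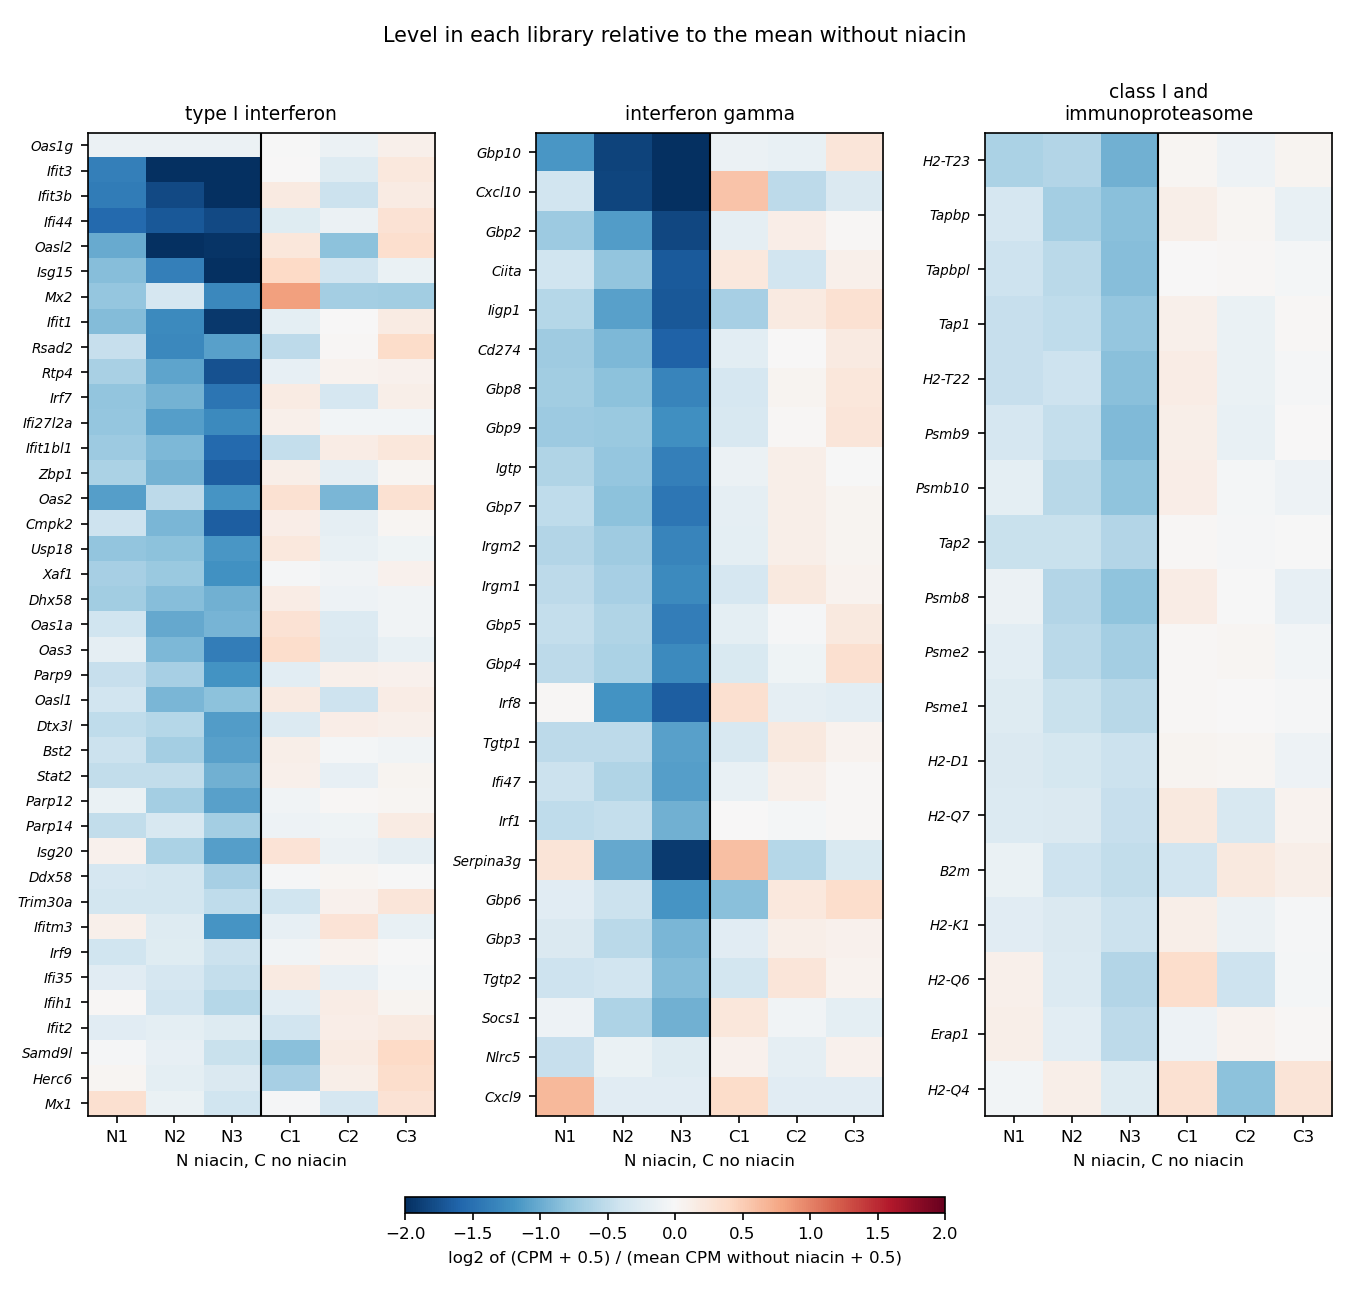
Level of 82 of the 83 genes in each niacin library (N1 to N3) and each control library (C1 to C3), as log2 of (CPM + 0.5) over the control mean CPM + 0.5, with genes ordered by log2 fold change within a list. Blue is below the control mean; N3 is the bluest column in most rows, N1 the palest of the niacin columns.

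The 3 niacin libraries differed in depth of the shift. The median gene of the type I list stood at 70.4%, 59.3% and 43.3% of its control mean in niacin libraries 1, 2 and 3, and at 98.3%, 93.7% and 106% of it in the control libraries. For the interferon gamma list the shares were 70.1%, 59.9% and 39.9% with niacin and 87.9%, 102% and 105% without. For the class I list they were 83.1%, 73.6% and 64.4% with niacin and 108%, 97.9% and 98.4% without. Niacin library 3 was the lowest of the 6 libraries in 72 of the 83 genes, and niacin library 1 the highest of the 3 niacin libraries in 68. With both libraries 1 left out, the 2 groups did not overlap in 74 of the 83 genes, lower with niacin, against 23.7% of all genes, and edgeR still called 0. Cell cycle genes were higher in library 1 of each group, at a median of 135% of the control mean in niacin library 1 and 136% in control library 1, and at 75.4% and 46.6% in niacin libraries 2 and 3 and 82.4% and 81.7% in control libraries 2 and 3. The part of this difference between libraries in the interferon values was not tested.

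Of the genes called without the knockout-labelled library 3, 6 lie outside the 3 lists: Samhd1, Il18bp, Treml2 and Nectin3, which were named after their values were seen, and Pml and Pim2. Samhd1, which encodes a dNTP hydrolase that restricts viruses, was at 1080, 1005 and 682 CPM with niacin and at 1540, 1721 and 2014 CPM without (log2 fold change -0.93 ± 0.22, edgeR adjusted p = 0.453, 0.0279 without that library). Pml, the scaffold of nuclear bodies and itself interferon-inducible, was at 153, 135 and 111 CPM with niacin and at 259, 226 and 217 CPM without (log2 fold change -0.82 ± 0.16, edgeR adjusted p = 0.131, 0.0331 without that library). Il18bp, a secreted antagonist of IL-18 that interferon gamma induces, was at 6.60, 6.96 and 4.78 CPM with niacin and at 19.3, 12.7 and 20.1 CPM without (log2 fold change -1.51 ± 0.31). All 3 are genes that interferons are known to induce, and in none did the groups overlap.

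Treml2, a receptor of the TREM family, was at 48.3, 52.5 and 41.7 CPM with niacin and at 73.7, 64.9 and 80.9 CPM without (log2 fold change -0.62 ± 0.22). Nectin3, an adhesion molecule, had 0 counts in each niacin library and 8, 10 and 11 counts in the control libraries. Against the limit of 3 counts over the niacin group it was at least 11.2-fold lower with niacin, a bound that covers counting error only. Idh2, the NADP-dependent isocitrate dehydrogenase of mitochondria, was called by DESeq2 (adjusted p = 0.00337) but not by edgeR without that library (0.0563). It was at 107, 111 and 105 CPM with niacin and at 145, 144 and 152 CPM without, and the groups did not overlap.

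At an unadjusted p under 0.05 in edgeR, fewer genes were higher with niacin (168) than lower (289). Over all genes tested, 8523 log2 fold changes were positive and 8295 negative. Ranked by p, 23 genes came before the first gene higher with niacin. That gene was Cdc25b, a phosphatase that activates cyclin-dependent kinases, at 228, 271 and 316 CPM with niacin and 212, 188 and 183 CPM without (log2 fold change 0.48 ± 0.12, edgeR adjusted p = 0.461, DESeq2 0.0245). It was the only gene that DESeq2 called higher. Slc26a11, an anion transporter, was at 30.7, 49.2 and 52.6 CPM with niacin and at 24.4, 19.0 and 29.3 CPM without (log2 fold change 0.87 ± 0.30). Golm1, a Golgi membrane protein, was at 47.4, 48.5 and 80.3 CPM with niacin and 39.8, 44.3 and 36.3 CPM without, with niacin library 3 far above the others. Cfl2, an actin-severing protein, was at 32.7, 41.2 and 44.7 CPM with niacin and 15.7, 22.5 and 30.8 CPM without. Ankrd52 and H2-Ke6 completed the 6 smallest p in this direction, with log2 fold changes of 0.68 ± 0.24 and 0.66 ± 0.24.

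IL-2 was present in both cultures, so the genes of its signalling chain were read next. Of 20 genes of common gamma chain signalling, 7 did not overlap in the lower direction and 1 in the higher (median log2 fold change -0.19), and 4 were voom calls, each lower with niacin. Of all genes, 5.22% and 4.43% did not overlap in those directions, and voom called 1.11% lower. Pim2, a survival kinase induced by STAT5, was at 200, 240 and 177 CPM with niacin and at 320, 315 and 304 CPM without (log2 fold change -0.60 ± 0.12, edgeR adjusted p = 0.147, 0.0352 without the knockout-labelled library 3). Stat3 was at 442, 382 and 347 CPM with niacin and at 554, 584 and 498 CPM without (log2 fold change -0.48 ± 0.12, voom adjusted p = 0.000367). The other 2 voom calls were receptor chains, and both had groups that did not overlap. Il2rg, the common gamma chain itself, was at 573, 473 and 430 CPM with niacin and at 720, 627 and 592 CPM without (log2 fold change -0.39 ± 0.15). Il4ra was at 384, 352 and 351 CPM with niacin and at 499, 466 and 415 CPM without (log2 fold change -0.35 ± 0.11).

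In Jak1, Il2rb and Cish, genes of the IL-2 pathway, the groups overlapped. Jak1 and Il2rb, the members with the highest CPM, were at 1476 ± 234 and 1034 ± 434 CPM with niacin and at 1444 ± 217 and 1079 ± 433 CPM without (SD, n = 3 each). Cish, a STAT5-induced inhibitor, was at 304, 185 and 154 CPM with niacin and 324, 168 and 164 CPM without (log2 fold change -0.03 ± 0.25). In Cish and Il2rb library 1 was the highest of each group. Bcl2, a survival factor, was the one member without overlap in the higher direction, at 304, 315 and 371 CPM with niacin and 284, 246 and 248 CPM without (log2 fold change 0.35 ± 0.20, voom adjusted p = 0.0787).

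A set of 10 NF-kB pathway genes, put together after their values were seen, had 10 negative log2 fold changes (median -0.52) and 7 voom calls. Groups did not overlap, lower with niacin, in 4 of the 10. Of all 16882 genes, 8295 were negative, 5.22% did not overlap in that direction, and voom called 1.11% lower. Nfkbia, the inhibitor that NF-kB itself induces, was at 209, 192 and 182 CPM with niacin and at 316, 260 and 253 CPM without (log2 fold change -0.51 ± 0.18, voom adjusted p = 0.0199). Relb was at 72.8, 51.7 and 43.2 CPM with niacin and at 123, 72.6 and 97.0 CPM without, and overlapped between groups. Since the set was chosen by its values, it carries no test.

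NAD synthesis was read because niacin is its substrate. Of 23 genes, 17 were tested, 9 with a negative and 8 with a positive log2 fold change (median -0.00). Per length of gene model, Naprt, the enzyme that takes up niacin into the pathway, was at 0.786, 0.529 and 0.886 CPM per kb with niacin and 0.855, 0.325 and 0.515 CPM per kb without (log2 fold change of CPM 0.37 ± 0.56). Nadsyn1, the last enzyme of that route, was at 5.64 ± 1.02 CPM per kb with niacin and 6.23 ± 0.398 CPM per kb without (SD, n = 3 each). Nampt, which starts the route from nicotinamide, was at 16.7, 12.8 and 11.4 CPM per kb with niacin and 13.2, 19.7 and 21.6 CPM per kb without. Its groups overlapped through control library 1, and voom called it lower (adjusted p = 0.0377) while edgeR did not (log2 fold change -0.41 ± 0.26).

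On the per-length scale the order of levels was the same in both groups for the entry enzymes: Nampt, then Qprt, which starts from quinolinate, at 7.67 ± 1.94 CPM per kb with niacin and 7.46 ± 0.311 without, then Nmrk1, the kinase for nicotinamide riboside, then Naprt. Nmrk1 was at 2.32, 2.26 and 2.37 CPM per kb with niacin and at 1.57, 1.28 and 1.65 CPM per kb without (log2 fold change 0.62 ± 0.27, unadjusted p = 0.0301, edgeR adjusted p = 1.0). It was the one gene of the list with an unadjusted p under 0.05, and its groups did not overlap. Haao, an enzyme of the route from tryptophan, did not overlap either but stood at 0.701, 0.423 and 0.444 CPM with niacin and 0.414, 0.189 and 0.339 CPM without. Nadk, which makes NADP, was at 48.7 ± 2.83 CPM per kb with niacin and 54.7 ± 5.69 without. Nnmt, which methylates nicotinamide, had no counts in any of the 6 libraries. Of 12 genes of NAD-consuming enzymes, among them sirtuins and PARPs, 0 had an unadjusted p under 0.05 (median 0.02), Parp1 being at 151 ± 19.6 CPM with niacin and 175 ± 27.8 CPM without.

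**Figure D3:**
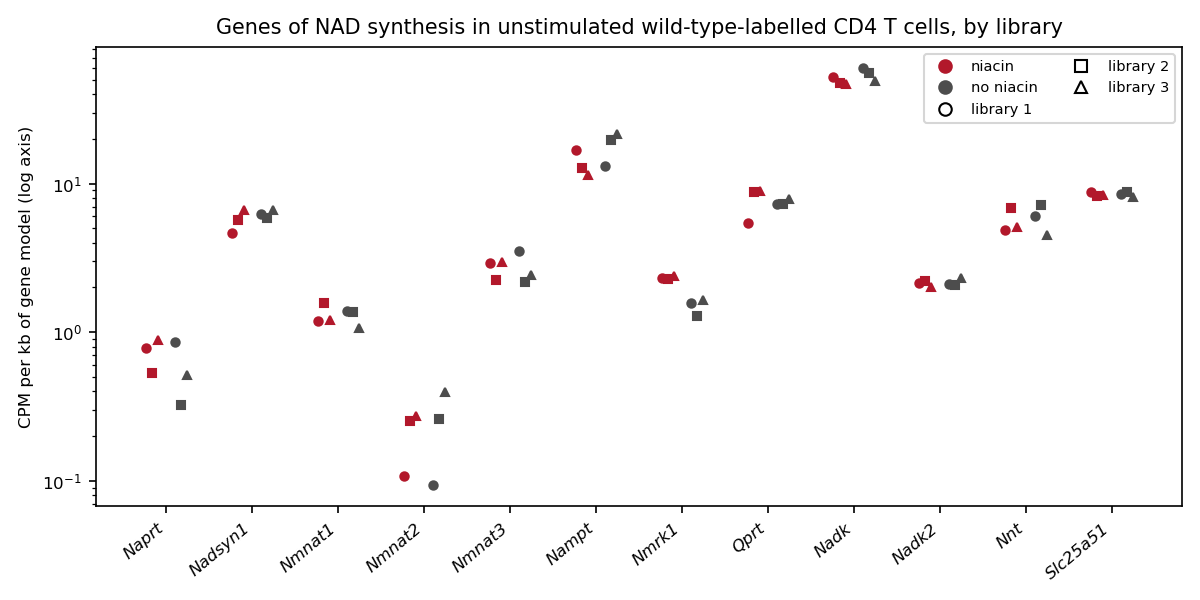
Level of 12 genes of NAD and NADP synthesis and transport in each library, as CPM per kb of gene model on a log axis, niacin left of control for each gene. Symbols mark libraries 1 to 3. The 2 groups lie over each other for most genes, and Nmrk1 is the one whose niacin libraries all lie above its control libraries.

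Of 15 genes of niacin's receptor family and of acid transporters, 9 were tested (median log2 fold change -0.25), and 0 had an unadjusted p under 0.05. Ffar2, a receptor for short-chain fatty acids, had 33, 2 and 2 counts with niacin and 50, 7 and 13 without. The lactate carrier Slc16a1 was at 63.6, 34.6 and 35.6 CPM with niacin and 50.1, 49.6 and 46.2 CPM without. In both genes the groups overlapped.

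Regulatory T cell genes had more members higher than lower with niacin, by little. Of 19 tested, 13 had a positive and 6 a negative log2 fold change, with a median of 0.06. Groups did not overlap in the higher direction in 5 and in the lower in 0 (background 4.43% and 5.22%). At an unadjusted p under 0.05, 4 were higher (background 0.995%), and 1 was a voom call (background 0.586% higher). Ikzf2 (Helios), the voom call, was at 39.5, 42.1 and 38.4 CPM with niacin and at 20.3, 29.9 and 30.5 CPM without (log2 fold change 0.57 ± 0.27, edgeR adjusted p = 1.0, voom 0.0377). Ctla4, an inhibitory receptor, was at 10.1, 9.76 and 8.51 CPM with niacin and 6.22, 7.46 and 6.23 CPM without. Foxp3, the lineage factor, was at 144, 145 and 140 CPM with niacin and 126, 136 and 110 CPM without (log2 fold change 0.21 ± 0.15, edgeR adjusted p = 1.0). Nrp1 and Nt5e were the other 2 without overlap. Il2ra and Tnfrsf18, the members with the highest CPM, were at 272 ± 77.6 and 163 ± 32.5 CPM with niacin and 253 ± 39.9 and 170 ± 38.4 CPM without. In bulk RNA, more cells of a type and more RNA per cell cannot be told apart.

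Naive and quiescence genes showed no common direction: of 28, 17 were negative and 11 positive, with a median of -0.04. Groups did not overlap in the lower direction in 4 and in the higher in 0, against 5.22% and 4.43% of all genes. Ly6c1, a surface protein of naive cells that type I interferon raises, was at 132, 157 and 131 CPM with niacin and at 195, 254 and 248 CPM without (log2 fold change -0.73 ± 0.27, voom adjusted p = 0.0174). Tcf7 and Klf2, the members with the highest CPM, were at 1763 ± 332 and 1491 ± 327 CPM with niacin and 1807 ± 247 and 1375 ± 238 CPM without. Of 30 T cell activation genes, 0 were voom calls (median -0.12), and Myc was at 224 ± 24.3 CPM with niacin and 213 ± 32.0 CPM without. Of 16 helper T cell cytokine genes tested and 17 helper lineage factors, 0 were voom calls, with medians of 0.06 and 0.01.

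Glycolysis had 2 voom calls in 20, Hk1 and Pkm, both lower with niacin, and a median of -0.21. Voom called 1.11% of all genes lower. Pkm was at 1210, 866 and 796 CPM with niacin and 1439, 1144 and 977 CPM without, and overlapped between groups. The 36 nuclear genes of oxidative phosphorylation all had negative log2 fold changes, but small ones (median -0.16) with 0 voom calls, and 29 of 30 ribosomal protein genes were negative with a median of -0.12. Of all 16882 genes, 8295 were negative. The 8 tested mitochondrial genes had a median of 0.22, the control libraries running from 55.8% to 141% of their mean. Heat shock and endoplasmic reticulum chaperones had 1 voom call each, Hsp90ab1 and Calr, both lower with niacin, and medians of -0.06 and -0.18.

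The lists of hypoxia, ATF4, NRF2, p53, cAMP, cholesterol synthesis, cholesterol efflux and acetylation genes had 0 voom calls and medians from -0.12 to -0.02. The cell cycle list had 35 genes, 31 of them negative, a median of -0.20 and 0 genes at an unadjusted p under 0.05. Of 18 homing genes, voom called Itga4 higher and Itgb7 lower (0.586% and 1.11% of all genes). They encode the chains of 1 gut-homing integrin, and the list had a median of 0.06.

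**Figure D4:**
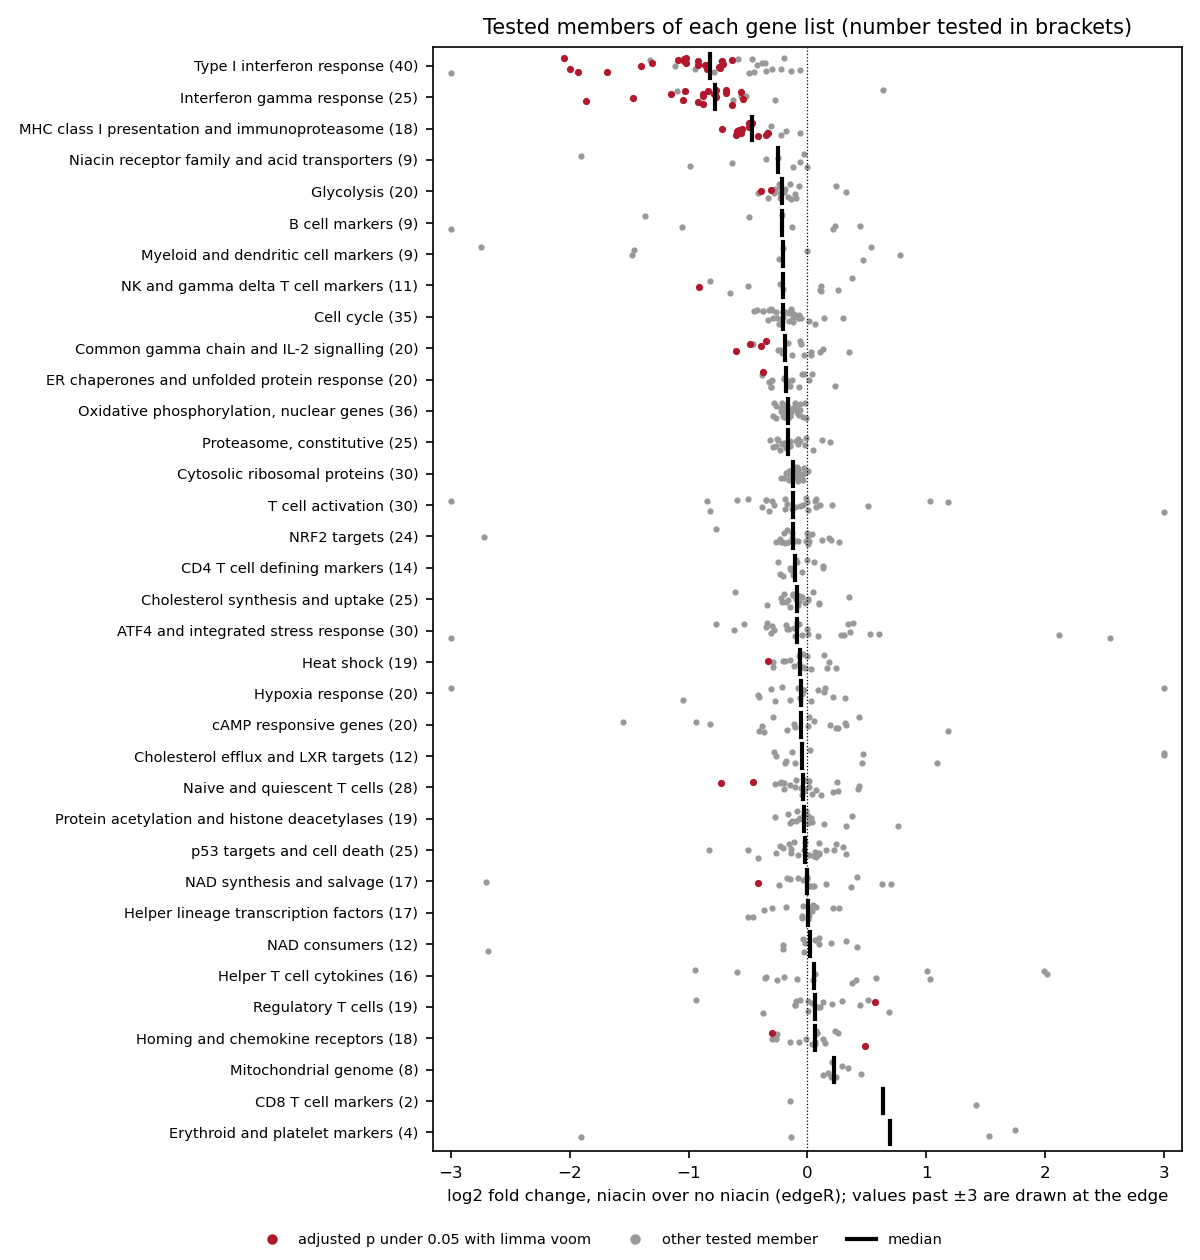
Log2 fold change, niacin over control, of the tested members of each of the 35 gene lists, ordered by the list's median (black bar). Red points are limma voom calls, and values past 3 in size are drawn at the edge. The 3 interferon and class I lists sit at the top with medians of -0.82, -0.78 and -0.47; the other lists with 10 or more tested genes have medians between -0.21 and 0.06.

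Markers of the labelled cell type were present. The summed level of 14 CD4 T cell markers ran from 7640 to 8131 CPM with niacin and from 7965 to 8910 CPM without, with none at 0. The 12 B cell markers ran from 731 to 930 CPM with niacin and from 862 to 1110 CPM without, nearly all of it Ighm; Igkc was at 51.4 CPM in control library 1 and at 0.077 to 1.06 CPM in the other 5 libraries. The 13 NK and gamma delta T cell markers ran from 180 to 423 CPM with niacin and from 209 to 331 CPM without, with niacin library 1 the highest and 1 member at 0 in each group. The 15 myeloid and dendritic cell markers summed to 10.6 to 13.7 CPM with niacin and 8.74 to 19.2 CPM without, with 2 at 0. The CD8 pair ran from 17.5 to 26.3 CPM with niacin and from 21.0 to 29.2 CPM without, and the 9 erythroid and platelet markers from 1.81 to 7.80 CPM with niacin and from 0.290 to 1.52 CPM without. Of the 11 tested NK and gamma delta T cell genes, 6 had a negative and 5 a positive log2 fold change (median -0.20). The 1 voom call among them, beside 1.11% of all genes called lower, was Prf1, the cytotoxic pore protein. It was at 20.1, 18.1 and 14.1 CPM with niacin and at 31.3, 35.5 and 31.9 CPM without (log2 fold change -0.91 ± 0.23, voom adjusted p = 0.000399). The part of these cells in the interferon values was not tested.

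The same question was put to unstimulated cells labelled Gpr109a-/-, with 2 libraries of niacin and 3 of control. The medians of the type I, interferon gamma and class I lists there were -0.59, -0.54 and -0.51, and -0.71, -0.85 and -0.37 without the outlying control library 3. EdgeR called 0 genes in that comparison with or without it (0.0% each way), and voom called 4 lower (0.0237%) and 0 higher (0.0%). At an unadjusted p under 0.05 in edgeR with library 3 included, 38 of the 83 were lower, against 6.68% of all genes lower and 1.27% higher. Without library 3 the shares of all genes were 1.47% and 0.999%. The 83 were not counted at that p without it, so the 38 has no match there. Groups did not overlap, lower with niacin, in 36 of the 83 genes against 7.16% of all, and in 76 of the 83 without library 3 against 15.4%. In these cells Ifit3 was at 12.2 and 13.8 CPM with niacin and at 54.2, 54.6 and 16.6 CPM without.

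Signs of the fold change were the same in both labels for 80 of the 83 genes (96.4%), against 62.0% of the 9727 genes at 5 CPM or more. Across those 9727 genes Pearson's r between the 2 comparisons was 0.46, and 0.62 without library 3, and across the 83 genes it was 0.27, and 0.32 without library 3; they share no library, but share 1 normalisation and 1 fit. The difference of the niacin effect between labels was itself tested: 1 gene was called lower (0.00592%) and 0 higher (0.0%), and that gene, Fzd7, is described under the results flagged below. At an unadjusted p under 0.05 the difference had 326 genes (1.93%), 0.569% lower and 1.36% higher, 1 of the 326 in the 83. For Irf1 the difference was -0.11 ± 0.18 on the log2 scale.

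In stimulated wild-type-labelled cells, with 3 libraries each, niacin libraries 1 and 2 stood apart from library 3: chi-square per degree of freedom was 76.27 and 55.48 against it and 23.25 between them. Their mitochondrial share was 0.187% and 0.216%, beside 0.605% in niacin library 3 and 0.554% to 0.566% in the controls. Niacin gave medians of -0.86, -0.46 and 0.12 for the type I, interferon gamma and class I lists. Without libraries 1 and 2 the medians were -0.73, -0.16 and -0.08, the lone niacin library being assumed to vary like the others, so the sign of the class I median rested on those libraries. Groups did not overlap, lower with niacin, in 33 of the 83 genes against 6.78% of all. EdgeR called 0 genes there (0.0% each way), with 1101 lower (6.52%) and 581 higher (3.44%) at an unadjusted p under 0.05, and voom called 1212 lower (7.18%) and 616 higher (3.65%). The class I list had 18 of 18 negative fold changes in unstimulated cells and 5 of 18 in stimulated cells, or 14 of 18 there without libraries 1 and 2. Its median level in niacin libraries 1, 2 and 3 of stimulated cells was 117%, 108% and 94.9% of the control mean, against 99.4%, 96.8% and 104% in the controls. Tap1 was at 1059, 979 and 766 CPM with niacin and 874, 797 and 809 CPM without in stimulated cells, with niacin library 3 below its controls. Irf1 was at 336, 352 and 310 CPM with niacin and 304, 298 and 300 CPM without, above its controls, whereas in unstimulated cells it lay below them.

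The difference of the niacin effect between unstimulated and stimulated cells had 0 calls by edgeR (0.0% each way), with 512 genes lower (3.03%) and 731 higher (4.33%) at an unadjusted p under 0.05. Voom called 605 lower (3.58%) and 758 higher (4.49%), and DESeq2 5 lower (0.0296%) and 2 higher (0.0119%). Of the 18 class I genes, 10 had an unadjusted p under 0.05 and 11 were voom calls, all with the lower value in unstimulated cells. Without stimulated niacin libraries 1 and 2, 2 of the 18 had an unadjusted p under 0.05, against 0.912% of all genes lower and 1.33% higher, and edgeR and voom each called 0 genes (0.0% each way). The lone stimulated niacin library left there gives no spread of its own, so these p-values cannot decide whether the difference remained. In size, 18 of the 18 edgeR differences were negative there (median -0.29), against 16 with all libraries (median -0.51). The interferon gamma median was -0.53 there and -0.27 with all libraries, beside 0.03 and 0.004 over all genes tested. With all libraries, 4 of the 25 interferon gamma genes were voom calls with the lower value in unstimulated cells, among them Irf1 (difference -0.78 ± 0.17, edgeR adjusted p = 0.456, voom 0.00793). Of the 40 type I genes, 0 were voom calls in that direction and 3 in the other, among them Trim30a, an interferon-induced TRIM protein (0.85 ± 0.38), and Herc6 (1.04 ± 0.45).

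Without the knockout-labelled library 3, edgeR called 4 genes lower in this difference (0.0238%) and 0 higher (0.0%): Tap2, Pim2, Plscr3 and the cytokine gene Ltb. Pim2 was at 638, 603 and 507 CPM with niacin and 471, 481 and 444 CPM without in stimulated cells, so its niacin libraries lay above the controls there and below them in unstimulated cells (difference -0.93 ± 0.17). Fold changes over the 9727 genes had r = -0.17 between unstimulated and stimulated cells, with 41.1% of signs shared, and over the 83 genes r = 0.71, with 64 shared (77.1%). These are descriptions across genes, which are not independent replicates.

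**Figure D5:**
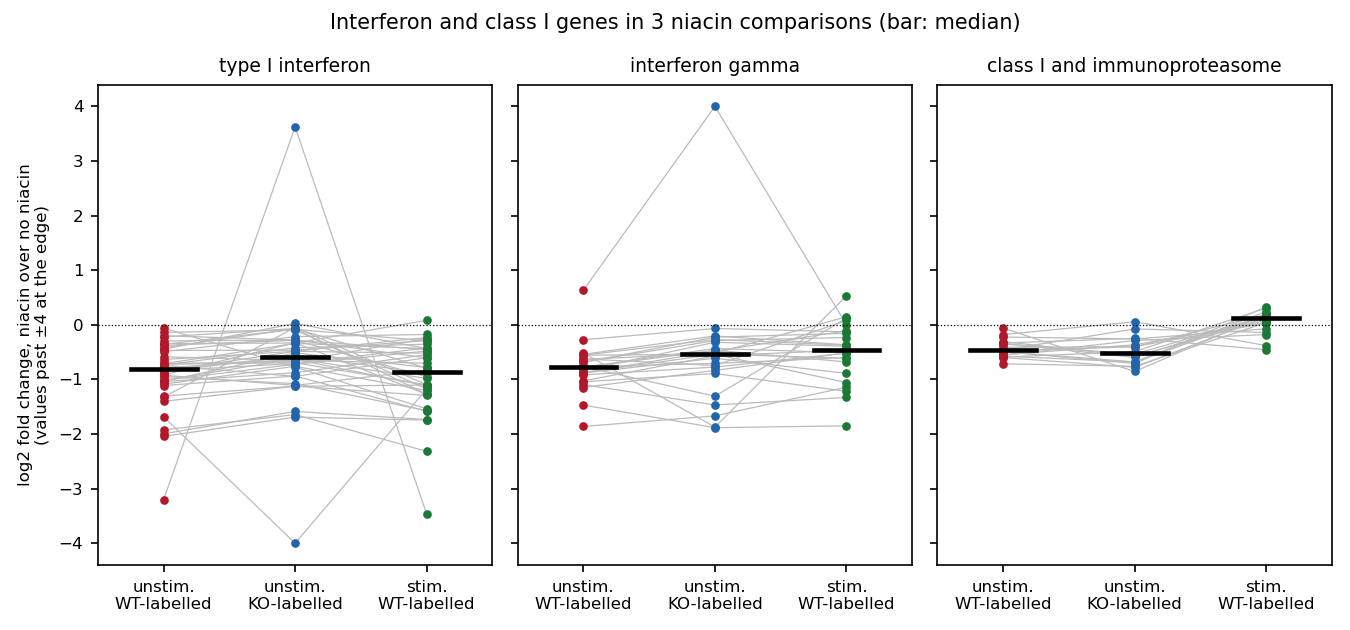
Log2 fold change of niacin over control for the members of the 3 lists in unstimulated wild-type-labelled, unstimulated knockout-labelled and stimulated wild-type-labelled cells; lines join a gene, and bars are medians; values past 4 in size are drawn at the edge. The median of the type I list lies below 0 in all 3 comparisons (-0.82, -0.59 and -0.86), while that of the class I list lies below 0 in both unstimulated comparisons (-0.47 and -0.51) and above it in stimulated cells (0.12), where it is -0.08 without niacin libraries 1 and 2.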

How the data were processed

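Bulk RNA-seq of sorted mouse CD4 T cells was read from the table of whole-number counts per gene that the authors deposited. Per the submitters' processing notes, reads passed through Trimmomatic 0.38, STAR 2.7.0e and featureCounts 1.6.3. No source used here gives the counting's strand setting or annotation release, so reads of antisense or overlapping genes cannot be told apart. Symbols came from GENCODE vM21 (53274 of 53379 IDs matched), coordinates from the deposited table (mm10) and promoters from RefSeq (GRCm38.p6).

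The counts of the 23 libraries were fitted by group in edgeR 4.0.16 (R 4.3.3) with TMM factors, filterByExpr (minimum count 10, 16882 genes kept) and the quasi-likelihood F test. P-values were adjusted over all genes by Benjamini-Hochberg, with a threshold of 0.05. The 8 groups share 1 estimate of spread, with 15 residual degrees of freedom. Contrasts were niacin over control, and the difference of that effect between genotype labels and between unstimulated and stimulated cells. Alternatives were limma 3.58.1 voom with quality weights, DESeq2 1.42.0, RLE factors, no filter, a replicate block, the compared groups alone, and libraries left out. Leaving out both libraries 1, leaving out stimulated niacin libraries 1 and 2, and combining the left-out knockout-labelled library 3 with other settings, were chosen after seeing the data. The fit was tested on simulated counts with 200 genes changed by niacin, all of them above 5 CPM. Counts were drawn independently for each gene and library around the group means. Differences that many genes of a library share, as in libraries 1, were thus not simulated. A change of 1 on the log2 scale was recovered in 63% of genes and a change of 2 in 97%, with 5 false calls. Smaller changes were not simulated. Every deposited total is a depth per library of 13205565 to 30090018 counts, and the limit given for a count of 0 covers counting error only, while SDs and SEs measure the spread between libraries.

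The members and gene lists were chosen with earlier results of these data known. The rule for named genes took the 6 smallest p per direction at 5 CPM or more without overlap between groups and, from each list with no call, the 2 members with the highest mean CPM, with Hcar2 and the NAD synthesis genes. Other genes were named after their values were seen. An item among the genes so chosen is not reported here; counts over the lists include it.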

Additional observations from a re-analysis of the deposited data

Results flagged for a closer look

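Fzd7, which encodes a Wnt receptor, was the 1 gene whose niacin effect differed between wild-type-labelled and knockout-labelled unstimulated cells past the adjusted threshold (edgeR adjusted p = 0.0444, difference of log2 fold changes -10.54 ± 1.59). It had 1, 0 and 1 counts in the niacin libraries and 16, 7 and 8 counts in the control libraries of wild-type-labelled cells. In knockout-labelled cells it had 2 and 24 counts with niacin and 0, 0 and 0 counts without, so the difference rests on counts near 0 and on 1 library with 24. The adjusted p was 0.0766 to 0.205 with 1 library of the wild-type-labelled groups left out, 0.128 without knockout-labelled library 3, 1.0 by limma voom and 7.0e-05 by DESeq2.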

How the results depend on the processing

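For niacin in unstimulated wild-type-labelled cells, where edgeR called 0 genes lower and 0 higher, the calls lower and higher were 13 and 1 by DESeq2, 187 and 99 by limma voom, 55 and 7 without the filter on low counts, and 16 and 0 without knockout-labelled library 3. With that library out, they were 66 and 3 by DESeq2, 15 and 0 with RLE factors, and 0 to 63 lower and 0 to 3 higher with 1 more library out (lower: 63, 3 and 0 without niacin library 1, 2 and 3, and 2, 0 and 0 without control library 1, 2 and 3). RLE factors, the compared groups alone, both libraries 1 left out and each single library left out gave 0 calls, with 304 to 1031 genes at an unadjusted p under 0.05 in the last. The cause of these differences was not tested.

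For the difference between genotype labels, 1 gene was called lower and 0 higher. The filter's removal gave 9 lower and 76 higher, and 0 lower remained by limma voom, without both libraries 1, with the compared groups alone, without knockout-labelled library 3, with the replicate block, and with each single library left out (0 to 0). For the difference between unstimulated and stimulated cells, with 0 calls, lower and higher counts were 5 and 2 by DESeq2, 605 and 758 by voom, 23 and 109 without the filter, and 4 and 0 without knockout-labelled library 3. Without stimulated niacin libraries 1 and 2 they were 0 and 0 by edgeR and by voom.

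Same-numbered libraries resembled each other in part: deviations of same-numbered niacin and control libraries had correlations of 0.289, 0.0253 and 0.226. Niacin libraries 1 and 3 correlated best with the control library of their own number, and niacin library 2 with control library 3 (0.152). The labels do not say whether same-numbered libraries belong together. The fit with the replicate block gave 0 calls for niacin, with 426 genes at an unadjusted p under 0.05 against 457 without it, and 18 lower calls with knockout-labelled library 3 left out. Over 23 alternatives the list medians ran from -0.95 to -0.66 (type I), -1.07 to -0.58 (interferon gamma) and -0.56 to -0.36 (class I). Of 551 values of 24 named results, 0 reversed, 416 kept their side of the threshold and 135 newly passed it.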

Other observations

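Of the genes outside the lists that limma voom called, 4 are given here, named after their values were seen. H2-DMa, a chaperone of class II loading, was at 70.1, 46.0 and 39.0 CPM with niacin and 109, 76.4 and 72.8 CPM without, and did not overlap (voom adjusted p = 0.000937). Cd74, the class II invariant chain, was at 37.3, 4.73 and 4.44 CPM with niacin and 61.6, 17.1 and 28.9 CPM without, and overlapped between groups. Wars, a tRNA synthetase that interferon gamma induces, was at 247, 169 and 131 CPM with niacin and 345, 320 and 302 CPM without. Ly6a (Sca-1) was at 757, 466 and 307 CPM with niacin and 905, 796 and 844 CPM without. In all 4 genes library 1 was the highest of each group.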
